A study of Homo sapiens with 4 samples.

Results

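Open chromatin around 7 genes that encode cell surface targets of prostate cancer therapy was described in LNCaP cells and in their enzalutamide-resistant derivative. The genes were FOLH1, STEAP1, PSCA, CEACAM5, DLL3, CD276 and NECTIN4. They were chosen by name, as 7 of 20033 protein-coding genes of the RefSeq annotation of GRCh38.p14. The window of a gene was its body with 20 kb added at both ends, and every accessible summit in it was taken. The windows held 52 of 117245 summits of LNCaP replicate 1 and 50 of 107344 summits of LNCaP replicate 2. They held 42 of 70866 summits of resistant replicate 1 and 24 of 45618 summits of resistant replicate 2.

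Surface targets are membrane proteins that antibodies, antibody-drug conjugates, radioligands or engineered T cells can reach from outside the cell. Their use depends on the tumour cell continuing to transcribe the gene, and open chromatin at a promoter or enhancer is one condition of transcription. Luminal prostate cells, driven by the androgen receptor, carry FOLH1, STEAP1 and PSCA, whereas DLL3 and CEACAM5 are targets sought in neuroendocrine tumours that have left the luminal state.

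The assay was ATAC-seq, in which a transposase cuts and tags DNA that nucleosomes leave free. There were 2 libraries of LNCaP, an androgen-responsive prostate cancer line labelled WT for genotype, and 2 of the line labelled LNCaP-resistance, whose genotype is given as resistance cells and whose treatment as enzalutamide, an androgen receptor antagonist. The study raised its resistant sublines from LNCaP by stepwise increases of the drug in medium with charcoal-stripped serum, while the labels give RPMI-1640 with fetal bovine serum for both groups and no subline number. Each group was 1 cell line. The study states in general that its experiments had independent replicates, but neither it nor the labels say whether the 2 ATAC-seq libraries of a group came from separate cultures, so the spread between them may be technical.

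Each library came as a list of summits with a score on the −log10 scale of the peak caller's p- or q-value, and the strength of a summit is given here as the percentile of its score within its own list. The lists differed in length, and resistant replicate 2 had the shortest. No read counts came with them, so the depth is unknown, and a missing summit means only that none was called. Windows of 250 bp to both sides of the summits were merged across the 4 libraries into 150917 regions. A shared region had a summit in all 4 libraries, an LNCaP-only region in both LNCaP and no resistant library, a resistant-only region the reverse, and any other pattern is called mixed. A change is the mean of the resistant libraries minus the mean of the LNCaP libraries, in percentile points, and it is called lower or higher only where both resistant libraries lay beyond both LNCaP libraries. With 2 libraries in a group, an exact permutation test cannot give a two-sided p below 0.333, so no test was run between the groups. Of 7 luminal prostate markers, 6 had a summit within 1 kb of the gene start in every library. For any marker without a start in the promoter table, either gene end was taken instead. Of 5 neuroendocrine markers, 3 did so in every library, of 3 blood cell markers 1 or 2, and of 4 fibroblast and endothelial markers none did. Of 3 basal markers, 1 did so in each LNCaP library and 0 in the resistant libraries.

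The promoters of STEAP1, CD276, NECTIN4 and CEACAM5 are shown first, because the summits of the first 3 genes fell on these bases or beside them and those of CEACAM5 did not. Each run is the 250 bases before the annotated start, 5′ to 3′ on the gene's own strand, from RefSeq on GRCh38.p14. Capitals mark any match, on either strand, to the letters AGAACA (core of the androgen receptor motif), TGTTTAC (forkhead), TGANTCA (AP-1), CAGCTG (E box) or GGGCGG (GC box), and overlapping matches run together.
STEAP1, chr7:90154219-90154468, plus strand: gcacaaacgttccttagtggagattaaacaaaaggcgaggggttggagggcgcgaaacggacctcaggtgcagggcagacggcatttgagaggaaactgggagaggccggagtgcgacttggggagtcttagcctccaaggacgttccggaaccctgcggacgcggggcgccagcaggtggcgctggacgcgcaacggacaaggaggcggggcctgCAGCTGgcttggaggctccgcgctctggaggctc
CD276, chr15:73684133-73684382, plus strand: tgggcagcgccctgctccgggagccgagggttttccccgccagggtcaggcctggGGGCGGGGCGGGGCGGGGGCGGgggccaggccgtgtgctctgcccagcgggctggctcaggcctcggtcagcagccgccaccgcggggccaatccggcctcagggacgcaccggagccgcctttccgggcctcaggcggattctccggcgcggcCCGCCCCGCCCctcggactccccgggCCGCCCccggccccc
NECTIN4, chr1:161089559-161089808, minus strand: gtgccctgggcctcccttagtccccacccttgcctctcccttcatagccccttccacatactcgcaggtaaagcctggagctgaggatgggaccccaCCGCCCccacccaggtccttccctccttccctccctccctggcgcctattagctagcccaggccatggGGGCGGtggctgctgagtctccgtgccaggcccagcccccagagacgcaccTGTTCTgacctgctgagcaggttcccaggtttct
CEACAM5, chr19:41708376-41708625, plus strand: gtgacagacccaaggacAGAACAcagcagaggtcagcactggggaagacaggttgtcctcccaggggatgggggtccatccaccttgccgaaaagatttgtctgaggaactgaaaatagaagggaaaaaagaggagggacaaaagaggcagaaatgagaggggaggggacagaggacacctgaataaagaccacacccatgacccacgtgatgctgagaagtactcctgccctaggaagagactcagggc

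The STEAP1 promoter had a GC content of 64.4% and 21 CG pairs, against medians of 58% and 11 over 35116 promoters of the table, and held 1 E box 34 bp before the start. The CD276 promoter had a GC content of 80.8% and 7 GC boxes. A second CD276 start, farther along the gene, had a promoter with a GC content of 77.2% and 2 GC boxes. The NECTIN4 promoter had a GC content of 65.2% but 6 CG pairs, with 2 GC boxes and 1 androgen receptor core 34 bp before the start. The CEACAM5 promoter had a GC content of 53.2%, 2 CG pairs and 1 androgen receptor core 233 bp before the start. Of all promoters, 12.4% held the androgen receptor core, 2.98% the forkhead letters, 6.57% the AP-1 letters, 14.0% the E box and 42.6% the GC box. These are matches of letters, and binding was not measured.

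Most of the 7 targets were open at a gene end in both cell types. For STEAP1, CD276 and NECTIN4 the table gives the start, and a summit lay within 1 kb of it in all 4 libraries. For FOLH1, PSCA and DLL3 the direction of transcription is not in the tables used here, and a summit lay within 1 kb of a gene end in all 4 libraries. CEACAM5 was the exception, with its nearest summits at positions −1562 to −1550 bp from the start. Thus 6 of 7 genes were open at 1 kb and 7 of 7 at 3 kb, while 62.9% of 15842 protein-coding genes with a known start were open there in all 4 libraries at 1 kb. The measure for the members is the wider one, since it took either gene end for 3 genes.

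The 7 windows held 70 regions, and they divided much as those of the genome did, with more shared and fewer LNCaP-only regions. Shared regions numbered 20 (28.6%, against 21.1% of all regions), LNCaP-only regions 12 (17.1%, against 27.5%) and resistant-only regions 1 (1.43%, against 3.84%). The other 37 were mixed. Around genes in general shared regions also outnumbered LNCaP-only ones. The windows of all protein-coding genes summed to 42769 shared and 37324 LNCaP-only regions, with regions in overlapping windows counted more than once. All regions of the genome comprised 31833 shared and 41503 LNCaP-only ones. Of the 7 genes, 6 had at least 1 LNCaP-only region, and DLL3 had none. Among protein-coding genes the share with 1 or more was 67.5%. Only the PSCA window held a resistant-only region, against 24.9% of protein-coding genes with at least 1. The map of the windows places each summit along its gene.

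**Figure D1:**
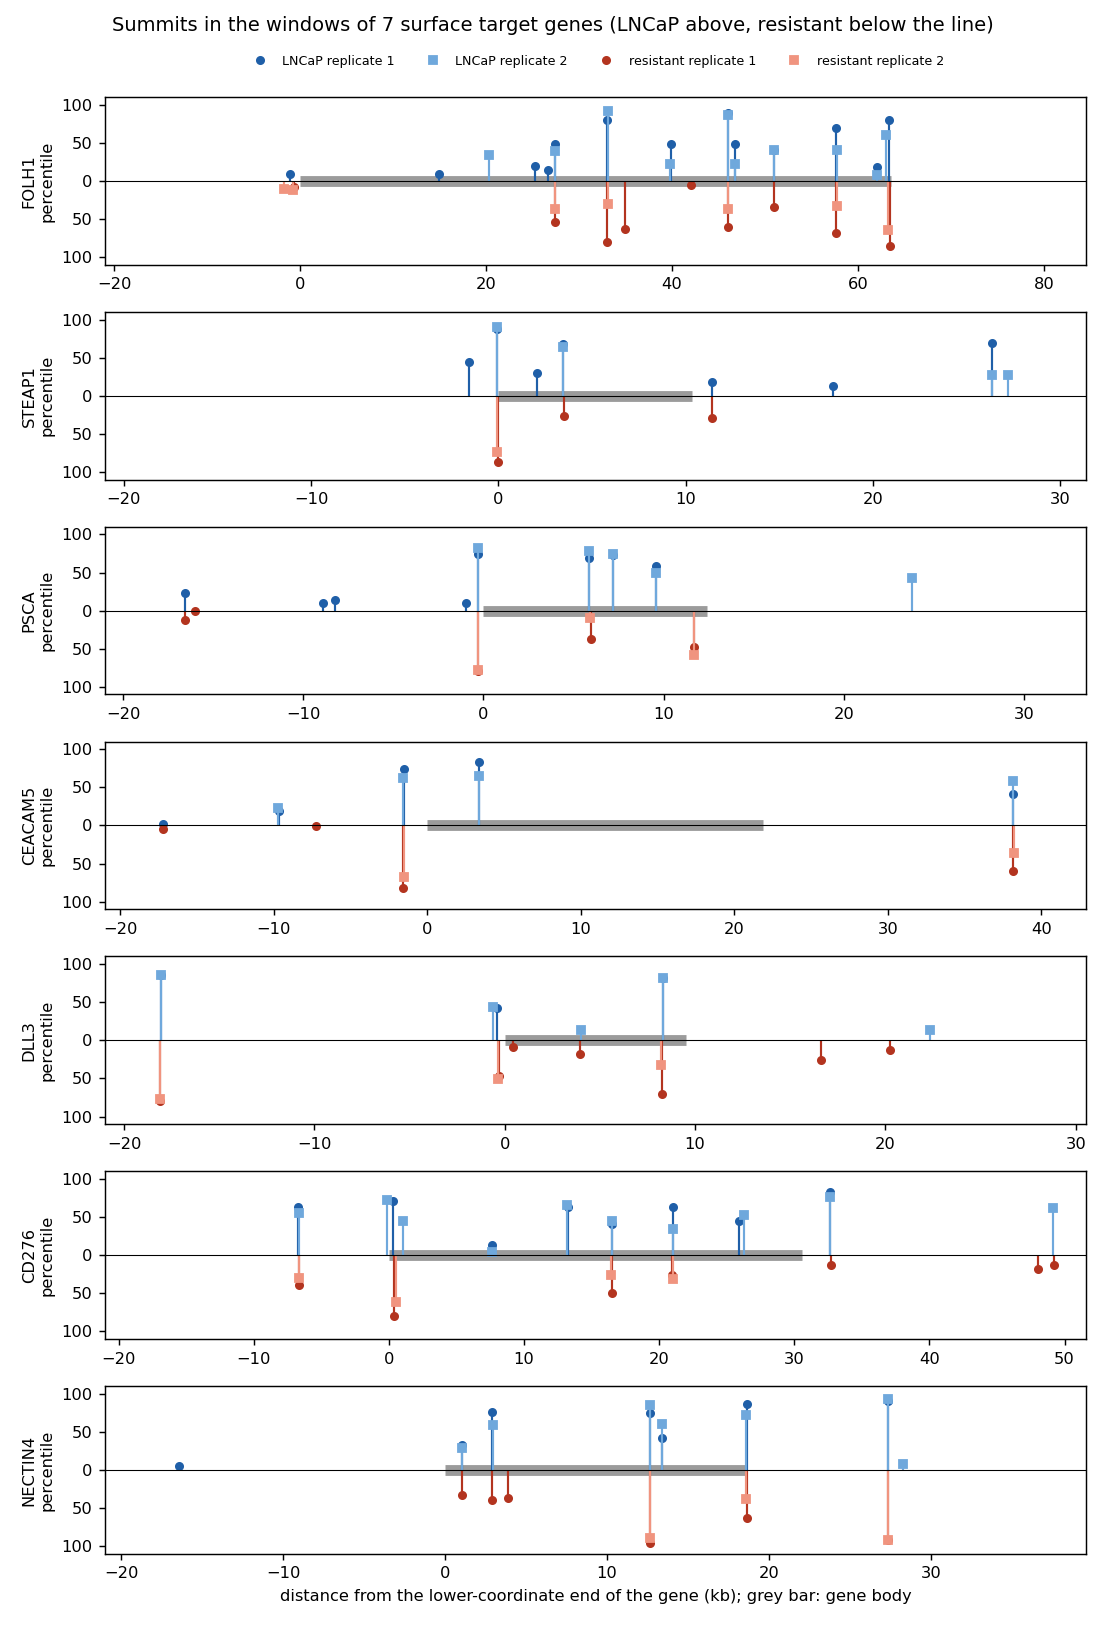
Strongest summit of each region in each library along the 7 gene windows. The horizontal axis is the distance from the lower-coordinate end of the gene in kb, the grey bar is the gene body, and stalk height is the percentile of score within the library, LNCaP libraries above and resistant libraries below the line. FOLH1 carried 17 regions, PSCA and CD276 11 each and CEACAM5 6.

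**Figure D2:**
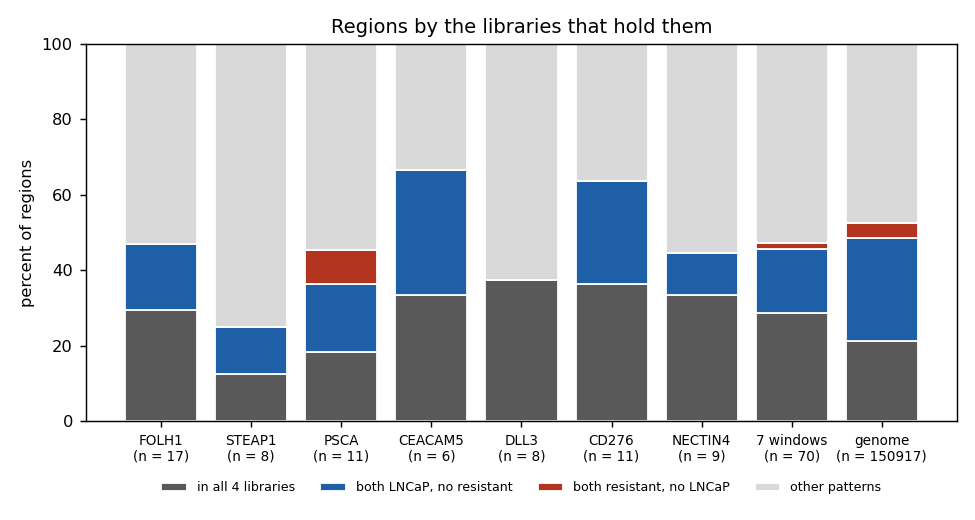
Percent of regions in each window by the libraries that hold them, with all 70 regions of the 7 windows and all 150917 regions beside them. The bar of DLL3 has no LNCaP-only part, and the bar of PSCA alone among the 7 genes has a resistant-only part.

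The strongest summit of each window served as the measure per gene. It was lower in both resistant libraries at FOLH1, STEAP1 and DLL3 and overlapped between the groups at the other 4 genes. It was higher in both resistant libraries at 0 of 7. Over all protein-coding windows, 40.9% were lower by the same rule and 14.7% higher, so a count of 3 of 7 lay near the background. The median change of the 7 genes was −7.69 percentile points, and that of all protein-coding genes was −1.88. The median rested on resistant replicate 2: without it the change was 0.351. Scaling set its sign too. With each list cut to its 45618 strongest summits the median was 13.6 (2.83 over all genes), and with percentiles taken among shared regions it was 11.7 (0.199 over all genes). No direction is therefore given for the 7 genes as a group.

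**Figure D3:**
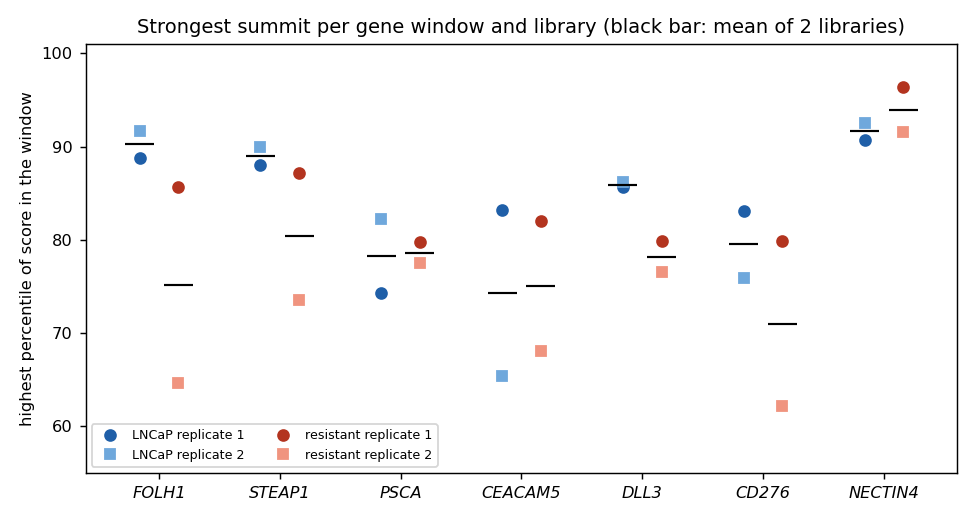
Highest percentile of score in each gene window, by library, with the mean of the 2 libraries of a group as a black bar. The axis starts at 55. Both resistant libraries lie below both LNCaP libraries at FOLH1, STEAP1 and DLL3, and resistant replicate 2 is the lowest library at 4 genes.

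**Figure D4:**
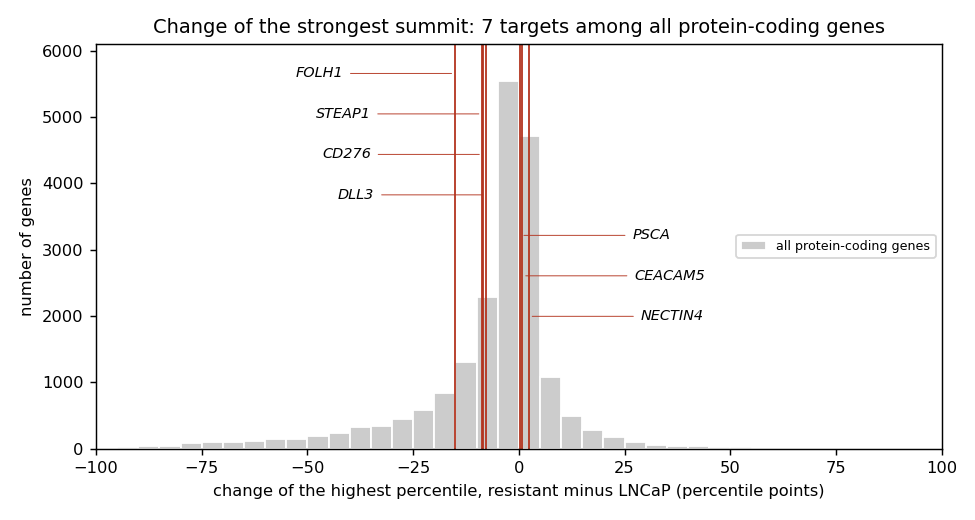
Change of the highest percentile per window, resistant minus LNCaP, in percentile points, for all 20033 protein-coding genes (grey bars, 5 points wide) and for the 7 targets (red lines). FOLH1 stands lowest at −15.1 and NECTIN4 highest at 2.30.

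FOLH1 (chr11:49145092-49208602) encodes prostate-specific membrane antigen, a glutamate carboxypeptidase and the target of PSMA radioligands. The strongest summit of its window had percentiles of 88.8 and 91.7 in LNCaP, against 85.7 and 64.7 in resistant replicates 1 and 2, a change of −15.1 (pooled SD 10.6, n = 2 per group). Its change had the 18.8th percentile among protein-coding genes, the lowest of the 7. It was negative in all 13 alternatives, from −27.0 to −3.10, and called lower in 11 of them. These alternatives reuse the same 4 libraries and are not separate checks. Some of them could not differ. The replicate block leaves this value as it is. The strongest summit of each library lay inside the gene, so a flank of 5 kb and the nearest gene alone kept it. With these settings, and with a flank of 50 kb, the value was again −15.1. The groups overlapped, however, on both other scales, with changes of −4.60 for lists of equal number and −12.2 among shared regions. FOLH1 also held the most summits, 13 and 10 in LNCaP and 10 and 7 in the resistant libraries. Its 17 regions were 5 shared, 3 LNCaP-only and 9 mixed.

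The regions of FOLH1 did not move alike. At its higher-coordinate end the summit was kept, at 79.6 and 60.3 in LNCaP and 85.7 and 64.7 in the resistant libraries (change 5.23, pooled SD 14.3). The groups overlapped there, but with lists of equal number the resistant libraries were higher by 44.1 and among shared regions by 20.5. This was the strongest shared region by the mean of all libraries. A region inside the gene, at chr11:49190818-49191382 and 17486 bp from that end, stood at 88.8 and 86.2 in LNCaP and at 60.5 and 36.7 in the resistant libraries. Both resistant libraries lay far below both LNCaP libraries, with a mean of 87.5 ± 1.85 (SD, n = 2) against 48.6 ± 16.8 (SD, n = 2) and a change of −38.9. The scores behind it were 37.1 and 28.4 in LNCaP and 22.3 and 7.33 in the resistant libraries. It was lower on all 3 scales, with changes of −31.7 for lists of equal number and −41.0 among shared regions. The region was picked after its values were seen.

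Another inner region of FOLH1, 33064 bp from the lower-coordinate end, stood at 80.3 and 91.7 in LNCaP but split the resistant libraries, at 80.4 and 30.3. The groups overlapped there, so its change of −30.7 rested on resistant replicate 2. The strongest LNCaP-only region of the gene, 39826 bp from the lower end, was modest, at 48.9 and 22.5, and had no summit left with lists of equal number. At that lower-coordinate end only weak summits were called, at 8.58 in LNCaP replicate 1 and at 8.20 and 11.5 in the resistant libraries. The open end of FOLH1 was thus the higher-coordinate one, and the strongest LNCaP summits lay inside the gene.

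STEAP1 (chr7:90154469-90164827) encodes a six-transmembrane surface protein of the prostate epithelium, of a family of metalloreductases. Its window was the one most reduced to a single site, with 8 and 5 summits in LNCaP and 3 and 1 in the resistant libraries. The summit on the promoter printed above was the strongest in each of the 4 libraries. Its positions from the start were −63 and −48 bp in LNCaP and −34 and −50 bp in resistant cells. Its percentiles were 88.0 and 89.9 in LNCaP and 87.2 and 73.6 in the resistant libraries, a change of −8.61 (pooled SD 6.88). Resistant replicate 1 was within 1 point of LNCaP replicate 1. The change was 4.05, with the groups overlapping, when lists of equal number were used. With a flank of 50 kb the change of the strongest summit of the window was 5.17. That value is not the change of the promoter summit, since summits beyond the 20 kb limit then entered the window.

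Beyond the promoter, the STEAP1 gene body held a region 3487 bp after the start, at 67.7 and 64.6 in LNCaP, 26.9 in resistant replicate 1 and with no summit in resistant replicate 2. With lists of equal number, or scores of at least 10, this region was LNCaP-only. The 1 region that was LNCaP-only with all summits lay 26360 bp after the start, beyond the gene, and its LNCaP values were far apart, at 68.9 and 27.1. It was mixed with lists of equal number and with scores of at least 10. The remaining 5 regions were mixed and stood at percentiles up to 44.9.

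PSCA encodes prostate stem cell antigen, a GPI-anchored protein of the Ly6 family. The gene lies at chr8:142670297-142682725. Its strongest region lay outside the gene, at −279 bp from its lower-coordinate end, and 51 bp from an end of its neighbour JRK, so the region cannot be given to either gene. It stood at 74.3 and 82.3 in LNCaP and at 79.7 and 77.5 in the resistant libraries, a change of 0.327 (pooled SD 4.14), within the spread of the libraries. With lists of equal number it was higher in both resistant libraries, by 26.9. With only the summits nearest to PSCA, which leave this region out, the best percentile was lower, with a change of −22.9. Inside PSCA the picture differed. A region 5905 bp from the lower end stood at 69.0 and 78.5 in LNCaP and at 37.2 and 9.87 in the resistant libraries, the widest drop of the 20 shared regions (change −50.2, pooled SD 14.4). It was lower on all 3 scales, with changes of −28.7 for equal numbers and −38.2 among shared regions. The scores were 19.4 and 22.0 in LNCaP and 10.8 and 3.26 in the resistant libraries. With scores of at least 10 the region was mixed, since resistant replicate 2 lost its summit. This region, too, was picked after its values were seen.

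Next to that region, 7207 bp from the lower end, lay an LNCaP-only region at 72.4 and 73.9. It had no summit in either resistant library, and it remained LNCaP-only with lists of equal number and with scores of at least 10. A second LNCaP-only region, 9581 bp in, stood at 58.6 and 48.7. It had no summit left with lists of equal number and was mixed with scores of at least 10. The 1 resistant-only region of all 7 windows was also inside PSCA, 738 bp from the higher-coordinate end, at 47.3 and 57.7 with scores of 14.4 and 13.9. It remained resistant-only under both restrictions. Inside PSCA, with all summits, 1 region was held by all 4 libraries, 2 by LNCaP alone and 1 by the resistant cells alone.

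CEACAM5 (chr19:41708626-41730519) encodes carcinoembryonic antigen, a GPI-anchored adhesion molecule. Its window was the sparsest, with 6 regions. The strongest shared region lay 1556 bp before the start, at 74.3 and 62.2 in LNCaP and 82.0 and 68.1 in the resistant libraries. The groups overlapped (change 6.80, pooled SD 9.19), but both resistant libraries were higher with lists of equal number, by 47.6, and among shared regions, by 22.4. A region 3374 bp after the start, inside the gene, was LNCaP-only at 83.2 and 65.4, the strongest of the 12 LNCaP-only regions, and it remained so with equal numbers and with scores of at least 10. The best percentile per library therefore came from inside the gene in LNCaP and from upstream of it in the resistant libraries, with a change of 0.776 (pooled SD 11.3). It was higher by 32.4 with equal numbers and by 22.4 among shared regions. Its sign depended on the LNCaP library kept: it was lower, at −8.12, without LNCaP replicate 2 and higher, at 9.67, without LNCaP replicate 1.

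DLL3 encodes an inhibitory ligand of the Notch pathway and is a target in neuroendocrine carcinoma. The gene lies at chr19:39498947-39508469. It was the 1 gene of the 7 without an LNCaP-only region, and the 1 with a higher mean number of summits in the resistant libraries, at 3 and 5 in LNCaP and 7 and 3 in the resistant libraries. Resistant replicate 1 alone set that excess. The strongest summits of the window were not at DLL3 but at the start of TIMM50, −18090 bp from its lower-coordinate end, at 85.6 and 86.2 in LNCaP and 79.8 and 76.6 in the resistant libraries. The gene's change of −7.69 (pooled SD 1.64) was that of this neighbouring region, and it was 7.37 with lists of equal number. With a flank of 5 kb, or with the nearest gene alone, which leave out the TIMM50 region, the change was −20.9.

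At DLL3 itself, the region 422 bp outside the lower-coordinate end was of middle strength, at 42.0 and 43.7 in LNCaP and 47.1 and 50.8 in the resistant libraries. Both resistant libraries lay above both LNCaP libraries (change 6.08, pooled SD 2.08). With lists of equal number, and with scores of at least 10, only the resistant libraries kept a summit there, whereas among shared regions the groups overlapped (13.4). The region near the other end, 8272 bp into the gene, moved the other way, at 81.3 and 81.6 in LNCaP and 70.4 and 32.7 in the resistant libraries (change −29.9, pooled SD 18.9), and the groups overlapped there with lists of equal number (−11.0).

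CD276 (chr15:73683944-73714514) encodes B7-H3, an immune checkpoint molecule of the B7 family found on many carcinomas. Its start region was kept, at 71.5 and 71.9 in LNCaP and 79.8 and 62.1 in the resistant libraries (change −0.700, pooled SD 8.86). On the other scales it was higher in both resistant libraries, by 35.1 with equal numbers and 13.3 among shared regions. The summits of this region did not coincide. They lay at −131 and −556 bp from the first start in LNCaP and at −80 and 66 bp in the resistant libraries. The region nearest the second start had a summit in LNCaP replicate 2 alone, at 44.1. The strongest summits in LNCaP lay elsewhere, 2099 bp above the gene, at 83.1 and 75.9. There resistant replicate 1 had a summit at 13.5 and resistant replicate 2 had none, and the region was LNCaP-only with lists of equal number. This shift carried the change of the best percentile, from 83.1 and 75.9 to 79.8 and 62.1 (change −8.50, pooled SD 9.55), where the groups overlapped. It was higher in both resistant libraries with equal numbers, by 15.5, and among shared regions, by 13.3, and it was 0.351 without resistant replicate 2.

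Other CD276 regions lay inside the gene or below it. The strongest LNCaP-only region, 13221 bp from the lower end and inside the gene, stood at 63.6 and 65.1 and remained LNCaP-only with equal numbers and with scores of at least 10. A shared region 6658 bp below the gene stood at 63.0 and 55.3 in LNCaP and at 39.2 and 30.3 in the resistant libraries (change −24.4, pooled SD 5.91). Among shared regions it was still lower in both resistant libraries, with a change of −12.0. In lists of equal number it was mixed, at 5.00 in LNCaP replicate 1 and at 5.54 and 30.3 in the resistant libraries, so that direction was not kept there. A shared region 21014 bp into the gene stood at 63.1 and 34.3 in LNCaP and at 26.3 and 31.4 in the resistant libraries (change −19.9, pooled SD 14.6), and the groups overlapped there among shared regions (−7.49). CD276 and FOLH1 had 3 LNCaP-only regions each, the most of the 7 genes.

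NECTIN4 (chr1:161070998-161089558) encodes an adhesion molecule of the nectin family and the target of an antibody-drug conjugate used in urothelial carcinoma. Its own start, on the minus strand, was lower in both resistant libraries, at 86.8 and 72.0 in LNCaP and 62.8 and 37.9 in the resistant libraries (change −29.0, pooled SD 14.4). The summits lay at positions −57 to −39 bp from the start, on the promoter printed above. It was the 1 region among the 9 shared regions near a gene end that changed by more than 20 points, and it was lower among shared regions too, at −25.5. With lists of equal number the groups overlapped (−10.1).

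A region inside NECTIN4 moved the other way. At chr1:161083395-161083916, 5905 bp after the NECTIN4 start and 173 bp before the start of its antisense gene NECTIN4-AS1, the percentiles were 74.2 and 85.4 in LNCaP and 96.4 and 89.8 in the resistant libraries. The means were 79.8 ± 7.92 and 93.1 ± 4.65 (SD, n = 2 each), a change of 13.3, and the scores were 22.6 and 27.6 against 96.8 and 43.7. It was higher on all 3 scales, by 42.4 with equal numbers and 33.1 among shared regions. The summit of resistant replicate 1 was the strongest in any of the 7 windows. The region was picked after its values were seen. Beside it, 541 bp beyond the antisense start, an LNCaP-only region stood at 42.0 and 59.7, and it was mixed with lists of equal number. The best percentile of the window in LNCaP came from the start of the neighbouring gene KLHDC9, at 90.7 and 92.6 against 92.4 and 91.5 in the resistant libraries, so the change for NECTIN4 of 2.30 (pooled SD 2.59) did not show the opposite moves within the gene. It was higher in both resistant libraries by 13.6 with equal numbers, by 11.7 among shared regions and by 6.98 with the nearest gene alone.

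The 20 shared regions of the windows were lower in both resistant libraries 8 times, higher 2 times and overlapped 10 times. Over all 31833 shared regions 41.8% were lower and 17.7% higher. The median change was −4.68 for the members and −4.65 for all shared regions. Without resistant replicate 1 these medians were −14.5 and −10.2, and without resistant replicate 2 they were −1.79 and −3.94. With scores of at least 10, which left 8 shared regions in the windows, they were 3.30 and −1.79. They were 7.37 and 4.61 with lists of equal number, and with percentiles among shared regions 4.13 and 0.745. With percentiles among shared regions, 5 were lower, 6 higher and 9 overlapped. With lists of equal number 13 were still shared, of which 2 were lower, 7 higher and 4 overlapped. The shares over all shared regions were not counted on these 2 scales. These counts therefore have no background and are not read as a result about the members. On the scale of all summits, position separated them. The 9 shared regions within 1 kb of an end of any annotated gene had a median change of 0.308, and the 11 farther away one of −19.9, with 9 of these 11 negative. Over the genome the medians were −0.0275 for 12543 regions near a gene end and −12.8 for 19290 farther away, of which 14294 were negative. Of the 12 LNCaP-only regions of the windows, 11 lay farther than 1 kb from any gene end. Over the genome 37943 of 41503 did so, a similar share. This split was made after the values were seen.

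**Figure D5:**
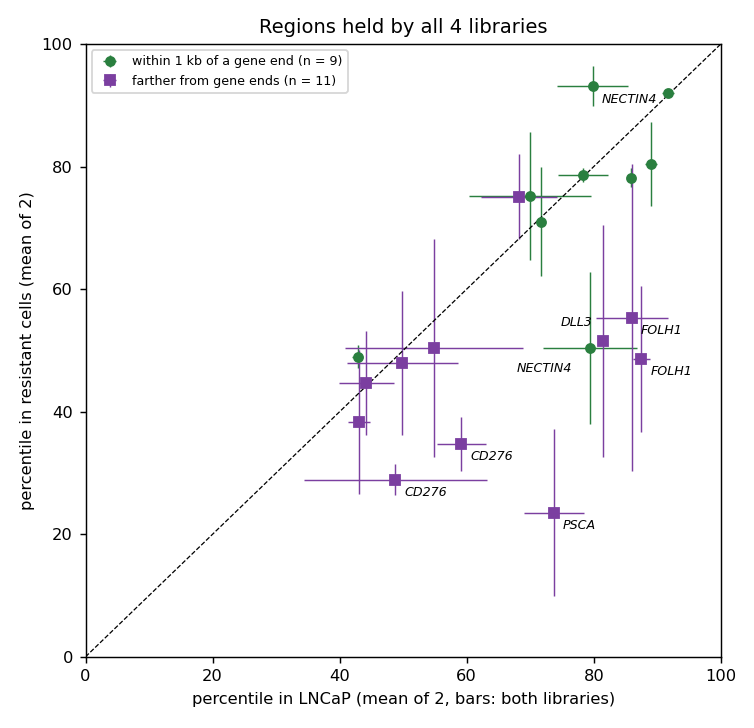
Percentile of score in LNCaP (horizontal) and in the resistant cells (vertical) of the 20 shared regions, as the mean of 2 libraries with bars that reach both. Circles lie within 1 kb of an end of any annotated gene and squares farther away, and names are given where the change was over 12 points. Most circles lie near the dashed line of equality, and the named squares, of PSCA, FOLH1, DLL3 and CD276, lie below it. Of the 11 squares 2 had a positive change, 1 of them at FOLH1 by 0.485.

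The edge of the windows cut through few summits. The last summits inside were at CD276, 18649 bp above the gene in resistant replicate 1 at percentile 13.1 and 18592 bp above it in LNCaP replicate 2 at 61.7. The first outside were 20043 bp above CD276 in LNCaP replicate 1, at 19.4, and 20728 bp above FOLH1 in the same library, at 41.1.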

How the data were processed

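ATAC-seq summits of 4 libraries were analysed, 2 of LNCaP and 2 of LNCaP-resistance cells. The authors deposited 1 list of summits per library, called on each library separately, with a −log10 score whose lowest value in each list lay between 1.31 and 1.34. Whether this is a p- or a q-value is not given in the sources used here. The submitters' processing notes name Bowtie2 2.2.5, SAMtools 1.6, MACS2 2.2.6, deepTools 3.5.2 and HOMER 4.11, with hg38 as the build. Depth and precision per library are unknown, since no read counts were given.

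Scores were turned into percentiles within each list, so that only ranks were compared. Lists of unequal length make equal percentiles unequal in rank: the many weak summits of a long list raise the percentiles of its strong ones. Summits on the main chromosomes were widened by 250 bp and merged. Gene bodies came from RefSeq (GRCh38.p14), without strand or exons, and starts and promoters from the RefSeq promoter table. Its 5 entries for the members covered 4 of the 7 genes: STEAP1, CEACAM5, CD276 and NECTIN4. Exons and introns were not analysed here. A window with no summit in a library was given percentile 0 there.

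The members and the gene lists were chosen with earlier results of these data known. In each window the region nearest the start or gene end and the strongest shared, LNCaP-only and resistant-only regions were named by rule, and other regions were picked after their values were seen. The split by distance to gene ends, and the values of single regions on other scales, were also added then. In the list of other surface antigens, 1 example that the rule picks is not reported here. Both groups carry batch labels repeat1 and repeat2. Over 31833 shared regions the deviations of same-numbered libraries from their group means had a correlation of −0.0121, so the numbers were not taken to pair the libraries. Alternatives were flanks of 5 and 50 kb, widenings of 100 and 500 bp, scores of at least 10, equal numbers of summits, membership by 1 library, the nearest gene alone, percentiles among shared regions, a replicate block and each library left out. The computation was tested on simulated lists. The tools were scipy 1.17.1, pandas 2.3.3, numpy 2.4.6 and, for the plots, matplotlib 3.10.9, all under Python 3.11.15.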

Additional observations from a re-analysis of the deposited data

How the results depend on the processing

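The cause of the moves below was not tested, except that fewer summits, fewer libraries or wider windows change counts by construction. Depth is unknown, and it limits every statement on a missing summit. With all summits there were 20 shared, 12 LNCaP-only and 1 resistant-only regions, 3 genes with a lower and 0 with a higher strongest summit, and a median change of −7.69. There were 0.647 summits in the resistant windows per LNCaP summit, but the resistant lists were shorter as a whole. The windows held 0.0444% and 0.0466% of the LNCaP lists and 0.0593% and 0.0526% of the resistant lists. Shared regions numbered 35 with a flank of 50 kb, 8 with scores of at least 10, 13 with equal numbers of summits and 31 with membership by 1 library. LNCaP-only regions then numbered 5, 5 and 28 under the last 3 settings. Of the 12 with all summits, 3 kept that class with equal numbers, 7 had no summit left and 2 were mixed. Resistant-only regions numbered 2 with a flank of 50 kb, 2 with scores of at least 10, 4 with equal numbers, 2 with a widening of 100 bp and 11 with membership by 1 library. With equal numbers 0 genes were lower and 5 higher, the median was 13.6 and the ratio of summits 1.04. With percentiles among shared regions 0 genes were lower and 3 higher, and the median was 11.7. Over all protein-coding genes the medians under these 2 settings were 2.83 and 0.199. The shares of all genes called lower or higher were counted with all summits alone. Counts of called genes under other settings therefore have no background. Higher genes numbered 1 with a flank of 5 kb, 2 with 50 kb and 1 with the nearest gene alone. The direction of the strongest summit turned at STEAP1, to 5.17 with a flank of 50 kb and 4.05 with equal numbers, and at DLL3, to 7.37 with equal numbers. With the flank of 50 kb the STEAP1 value was no longer that of its promoter summit. Among the genes whose groups overlapped, CD276 went from −8.50 to 15.5 with equal numbers, 13.3 among shared regions and 0.351 without resistant replicate 2. PSCA went from 0.327 to −22.9 with the nearest gene alone and 26.9 with equal numbers. CEACAM5 went from 0.776 to 32.4 with equal numbers, −8.12 without LNCaP replicate 2 and 9.67 without LNCaP replicate 1.

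Leaving out each library in turn gave 12 to 22 LNCaP-only and 1 to 10 resistant-only regions, 3 to 5 lower and 0 to 2 higher genes, and medians from −9.31 to 0.351. The most resistant-only regions, 10, and the median of 0.351 came without resistant replicate 2, and the 22 LNCaP-only regions and 5 lower genes without LNCaP replicate 2. With the replicate block the median change was −7.69 by construction, and 4 genes were lower. Within the pair of replicate 1 there were 22 LNCaP-only and 12 resistant-only regions, 5 lower and 2 higher genes and a median of −1.18. Within the pair of replicate 2 there were 25 and 4 such regions, 6 lower and 1 higher genes, and a median of −9.58.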

Other observations

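Other surface antigens and relatives of the 7 genes moved in both directions. Of 20 further antigens pursued in carcinomas, 10 had a strongest summit that was lower in both resistant libraries and 4 one that was higher, with a median change of −3.08 percentile points. Over all protein-coding genes the median was −1.88, with 40.9% lower and 14.7% higher. CLDN18, a tight junction protein, stood at 47.8 and 55.3 in LNCaP and at 21.4 and 9.58 in the resistant libraries. F3, tissue factor, stood at 69.0 and 52.6 in LNCaP and at 92.1 and 73.7 in the resistant libraries, both above. MUC1, a transmembrane mucin, stood at 80.9 and 81.3 in LNCaP and at 87.4 and 84.9 in the resistant libraries. An LNCaP-only region was present at 18 of these 20 genes, against 67.5% of protein-coding genes, and a resistant-only region at 3, against 24.9%.

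Of 22 relatives of the members, 9 were lower (40.9%) and 6 higher (27.3%, against 14.7% of protein-coding genes), with a median change of −3.33. NAALAD2, a carboxypeptidase related to FOLH1, stood at 67.0 and 71.5 in LNCaP and at 16.8 and 36.2 in the resistant libraries. STEAP1B stood at 97.0 and 98.1 in LNCaP and at 82.1 and 32.1 in the resistant libraries. CEACAM1, an adhesion molecule of the same family as CEACAM5, stood at 37.3 and 55.3 in LNCaP and at 77.2 and 62.8 in the resistant libraries. LYPD3, a Ly6 family protein like PSCA, stood at 70.6 and 59.7 in LNCaP and at 88.8 and 85.7 in the resistant libraries. The window of CEACAM7 shared its strongest region with that of CEACAM5, so these 2 genes are not separate measurements.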
